A study of Mus musculus with 18 samples.

Results

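The genes described here make or modify the reactive and water-soluble forms of drugs, steroids, bilirubin, bile acids and lipid esters in mouse liver. They are the UDP-glucuronosyltransferases (Ugt), the sulfotransferases (Sult), the carboxylesterases (Ces), the flavin-containing monooxygenases (Fmo) and the aldehyde oxidases (Aox). Members were chosen by symbol alone: Ugt1, Ugt2 and Ugt3 genes, all numbered Sult, Fmo and Aox genes, and Ces1 to Ces5 genes, without those whose symbol ends in -ps. The rule itself uses no measured value. The rule finds 72 members among the 54752 genes of the count table, of which 9 are Ugt1, 12 Ugt2 or Ugt3, 21 Sult, 8 Ces1, 11 Ces2 to Ces5, 7 Fmo and 4 Aox genes.

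Liver RNA came from 18 male C57BL/6 mice, 6 in each of 3 groups, with 1 library per mouse. Cirrhosis-PTH mice were injected intraperitoneally with 10% CCl4 (carbon tetrachloride, whose breakdown in hepatocytes damages the liver) dissolved in corn oil, at a dose of 10 µl per g given 2 times each week over 12 weeks, and received PTH by mouth every day at 0.25 mg per g. Here PTH stands for the preparation Pien Tze Huang, used in Chinese medicine, and not for parathyroid hormone. Cirrhosis mice had the same CCl4 injections with double distilled water by mouth, and Control mice had corn oil injections with the same water. All mice were bought at an age of 6 weeks, and corn oil was common to all groups. No group had PTH without CCl4, and the labels give no measure of fibrosis, so the group names are the study's. The 18 mice are part of 45 that the labels describe.

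As background, these enzymes work in stages. Fmo and Aox enzymes oxidise nitrogen, sulfur or ring carbons of drugs and amines, with a flavin in Fmo and with a flavin, iron-sulfur clusters and a molybdenum cofactor in Aox. Carboxylesterases, in the lumen of the endoplasmic reticulum, cleave esters and amides, including stored triacylglycerol and many prodrugs. Ugt enzymes, in the membrane of the same compartment, attach glucuronic acid taken from UDP-glucuronic acid. Sult enzymes, in the cytosol, attach sulfate taken from PAPS. The conjugates leave the hepatocyte through transporters of the Abcc and Abcg families. Hepatocytes carry most of this activity in liver, and several of the genes are known to be transcribed more in hepatocytes near the central vein.

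Total counts ran from 62.5 M to 112 M per library. Loci that collect ribosomal RNA reads held 41.1 ± 6.31% of them in Cirrhosis-PTH, 38.7 ± 1.73% in Cirrhosis and 47.8 ± 7.29% in Control (SD, n = 6 each), with the highest shares in Control replicates 7 and 8. The Cirrhosis share was 9.14 percentage points below Control in a two-sided exact permutation test over 6 against 6 libraries (difference -9.14, adjusted p = 0.019). Defining hepatocyte genes were high in all libraries. Of 5 enterocyte markers Cdx2 had no count in any library, but Fabp2 and Lgals4 were present in all groups. The summed level of the 5 was 26.5 to 38.3 CPM in Cirrhosis-PTH, 19.4 to 37.6 CPM in Cirrhosis and 30.7 to 46.9 CPM in Control. The summed level of 9 hepatocyte markers was 50051 to 55940 CPM in Cirrhosis-PTH, 32789 to 54480 CPM in Cirrhosis and 50149 to 67612 CPM in Control, and that of 8 pericentral hepatocyte markers was 3614 to 4819 CPM in Cirrhosis-PTH, 314 to 645 CPM in Cirrhosis and 4307 to 7111 CPM in Control. Stellate cell and myofibroblast markers summed to 382 to 849 CPM in Cirrhosis-PTH, 922 to 1266 CPM in Cirrhosis and 262 to 427 CPM in Control. The part of these shifts in the members' values was not tested, and in bulk tissue fewer cells of a type and less RNA per cell cannot be told apart. CPM here means counts per 1e6 counts of a library whose size was scaled with edgeR's TMM factors.

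Most members that could be tested fell in Cirrhosis against Control and rose in Cirrhosis-PTH against Cirrhosis. A low-count filter left 53 of the 72 members, and 21914 genes in all, for 1 edgeR quasi-likelihood fit of the 3 groups, with Benjamini-Hochberg adjustment over all genes tested and a threshold of 0.05. In Cirrhosis against Control, 35 tested members were lower and 3 higher, and 15 did not pass. Of all genes tested, 25.0% were lower, 25.5% higher and 50.5% either in that comparison. The median log2 fold change was -0.83 over the tested members and 0.02 over all genes. In 28 of the lower members every Cirrhosis library lay below every Control library, which held for 14.7% of all genes. In 2 of the higher members every Cirrhosis library lay above, which held for 15.6% of all genes. These were Sult1e1 and Sult2b1, which passed the low-count filter only through CCl4 libraries, so a difference was built into their being tested.

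In Cirrhosis-PTH against Cirrhosis, 38 tested members were higher, 1 was lower and 14 did not pass, against 20.1% of all genes higher, 18.6% lower and 38.6% either. The median log2 fold change was 0.86 over the members and -0.00 over all genes. The libraries of the groups did not overlap for 29 of the higher members and for the lower one, against 11.8% and 11.0% of all genes. The lower one was Sult1e1, which passed the filter only with its Cirrhosis libraries. In Cirrhosis-PTH against Control, 7 members were lower, 3 were higher and 43 did not pass, beside 2.48% of all genes lower, 6.34% higher and 8.82% either. The comparisons share groups, so the first and the second are not independent of each other. Without Control replicates 7 and 8, 33 of the 35 lower members and all 3 higher ones were called in Cirrhosis against Control, with Fmo5 and Ugt1a2 lost and Sult1a1 and Ugt1a5 added.

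Seen across the comparisons, 27 members were lower in Cirrhosis than in Control, higher in Cirrhosis-PTH than in Cirrhosis, and not called between Cirrhosis-PTH and Control. A further 7 were lower in Cirrhosis, higher in Cirrhosis-PTH than in Cirrhosis, and still lower in Cirrhosis-PTH than in Control: Aox3, Ces2a, Ces3a, Ces3b, Sult5a1, Ugt2b34 and Ugt2b35. Aox1 was lower in Cirrhosis without a call in the other comparisons. Sult1e1 had the opposite pattern, higher in Cirrhosis and lower in Cirrhosis-PTH. No call was made in any comparison for 11 members, among them Ugt1a9, Sult1a1, Ces2e, Fmo2 and Aox2. The share of all genes with each of these patterns was not counted, so the patterns are not shown to be particular to the members. Taken singly, 25.0% of all genes were lower in Cirrhosis than in Control and 20.1% higher in Cirrhosis-PTH than in Cirrhosis. Between Cirrhosis-PTH and Control 8.82% were called. The plot of fold changes by family shows the members' patterns side by side.

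**Figure D1:**
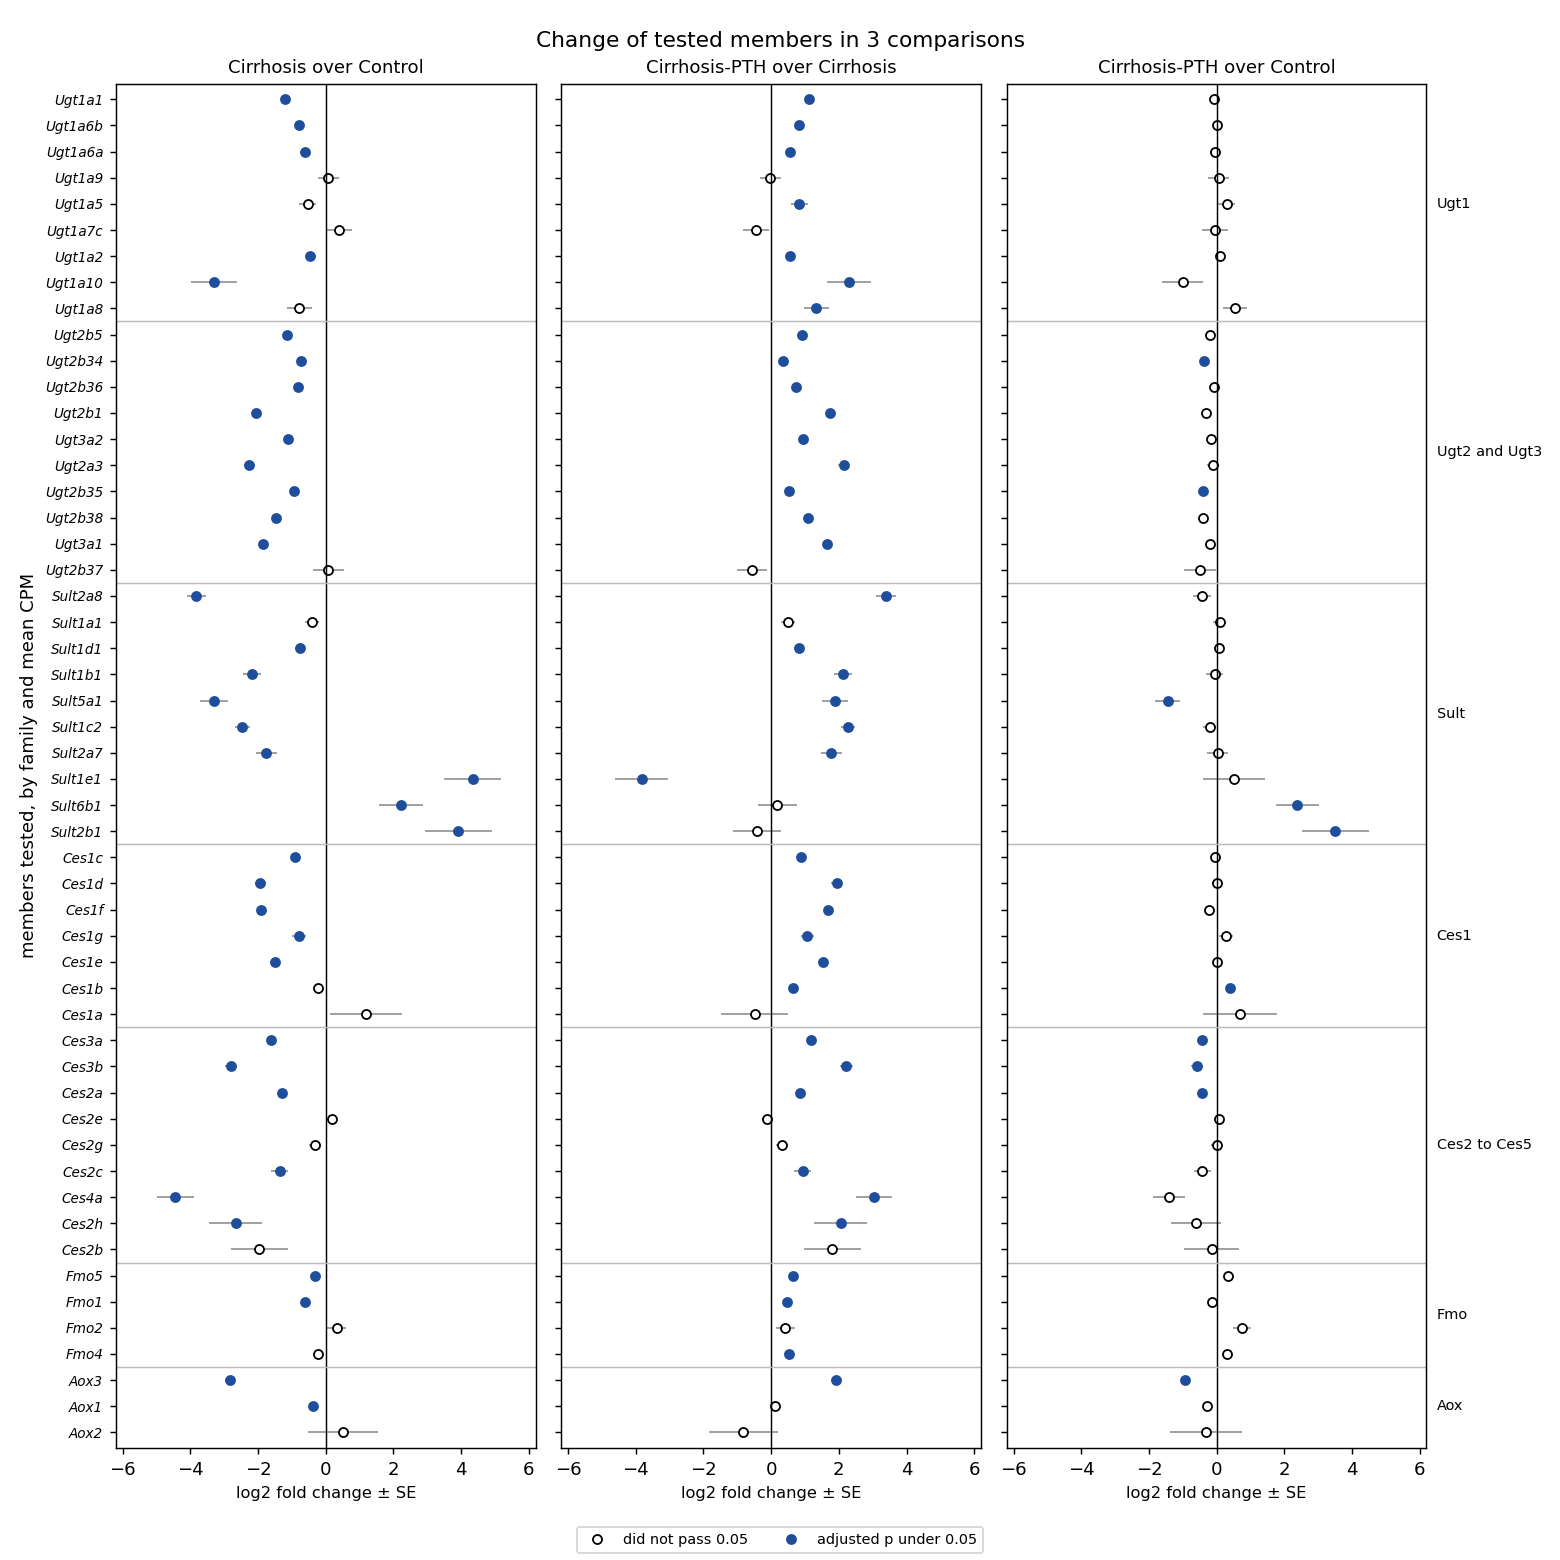
Log2 fold change with its standard error (x axis) for the tested members reported here (rows, grouped by family and ordered by mean CPM), in 3 comparisons, filled where the adjusted p was under 0.05. Filled points lie mostly left of 0 in Cirrhosis over Control (35 members) and right of 0 in Cirrhosis-PTH over Cirrhosis (38 members), while most points are open in Cirrhosis-PTH over Control.

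Glucuronidation of bilirubin and phenols falls to the Ugt1 genes. All 9 lie at 1 locus on chromosome 1 of GRCm38, each with its own 5' exon or exons and with 1311 exonic bases that at least 5 of them share. In Cirrhosis against Control, 5 of the 9 fell and none rose (median log2 fold change -0.61). The share called in either direction was 55.6%, near the 50.5% of all genes. Of all genes, 25.0% were lower in that comparison. In Cirrhosis-PTH against Cirrhosis 7 rose and none fell (median 0.81), with 77.8% called in either direction against 38.6% of all genes, and 20.1% of all genes higher. None passed between Cirrhosis-PTH and Control, where 8.82% of all genes did. Ugt1a1 (ENSMUSG00000089960, 88211959 to 88218997, plus strand), the enzyme that conjugates bilirubin, had the highest level per kilobase of the family in every library. It ran from 304 to 448 CPM in Cirrhosis-PTH (median 413), from 147 to 206 CPM in Cirrhosis (median 185) and from 369 to 478 CPM in Control (median 396). Every Cirrhosis liver lay below every liver of the other groups. The log2 fold change was -1.20 ± 0.11 (SE) in Cirrhosis against Control (adjusted p = 1e-08), 1.12 ± 0.11 in Cirrhosis-PTH against Cirrhosis (adjusted p = 6e-08) and -0.07 ± 0.11 in Cirrhosis-PTH against Control (adjusted p = 0.74).

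Ugt1a6a and Ugt1a6b encode enzymes for small planar phenols. Ugt1a6b ran from 98.8 to 112 CPM in Cirrhosis-PTH (median 105), from 54.6 to 72.4 CPM in Cirrhosis (median 58.9) and from 95.0 to 115 CPM in Control (median 106), with a log2 fold change of -0.79 ± 0.07 in Cirrhosis against Control (adjusted p = 1.2e-08). Its Cirrhosis libraries did not overlap with either other group. Ugt1a6a moved less, by -0.61 ± 0.14 in Cirrhosis against Control (adjusted p = 0.0014) and 0.56 ± 0.14 in Cirrhosis-PTH against Cirrhosis (adjusted p = 0.0036), and its libraries overlapped. Ugt1a10 had the steepest change of the family at a far lower level, with 1.05 to 10.0 CPM in Cirrhosis-PTH (median 3.75), 0.339 to 2.41 CPM in Cirrhosis (median 0.46) and 1.83 to 11.0 CPM in Control (median 9.06). Its log2 fold change was -3.30 ± 0.67 in Cirrhosis against Control (adjusted p = 0.00057), although 1 Cirrhosis and 1 Control library overlapped, and -4.0 without that Cirrhosis library, replicate 2 (adjusted p = 9.8e-05). In Cirrhosis-PTH against Cirrhosis it was 2.30 ± 0.65 (adjusted p = 0.0094), and 3.0 without Cirrhosis replicate 2 (adjusted p = 0.0013). Ugt1a9, by contrast, averaged 35.7 ± 11.5 CPM in Cirrhosis-PTH, 36.2 ± 15.0 CPM in Cirrhosis and 34.3 ± 11.9 CPM in Control (SD, n = 6 each), and its log2 fold change of 0.08 ± 0.31 in Cirrhosis against Control did not pass (adjusted p = 0.86). Ugt1a9 and Ugt1a7c (0.39 ± 0.38, adjusted p = 0.41) were the members of the locus whose Cirrhosis mean was not below the Control mean. Between 52.1% and 80.2% of the 50-base windows of each Ugt1 transcript set also occur in another gene, so the split of counts within the locus is uncertain.

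Ugt1a1 and Ugt1a9 are shown as a pair from the same locus, the one called and the other not. The promoter windows, 250 bases before to 50 bases after the start, are from RefSeq on GRCm38.p6, plus strand, at chr1:88211709-88212008 and chr1:88070529-88070828. Capitals mark the first 10 letters of the consensus of HNF1, a liver transcription factor, on either strand.
Ugt1a1: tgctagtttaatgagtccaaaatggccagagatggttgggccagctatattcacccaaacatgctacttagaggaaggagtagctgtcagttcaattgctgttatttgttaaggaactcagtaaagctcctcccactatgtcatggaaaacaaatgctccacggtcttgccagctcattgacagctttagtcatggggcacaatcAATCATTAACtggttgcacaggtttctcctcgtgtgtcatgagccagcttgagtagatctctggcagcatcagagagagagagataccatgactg
Ugt1a9: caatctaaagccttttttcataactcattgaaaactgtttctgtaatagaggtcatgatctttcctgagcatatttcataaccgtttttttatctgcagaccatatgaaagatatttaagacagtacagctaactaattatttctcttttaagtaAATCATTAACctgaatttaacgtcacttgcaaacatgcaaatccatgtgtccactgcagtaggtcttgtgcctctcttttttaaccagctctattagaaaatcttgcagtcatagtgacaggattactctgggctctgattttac
Both windows hold the motif on the reverse strand, at 45 bases before the start in Ugt1a1 and 95 bases before it in Ugt1a9. Whether the motif bears on the calls was not tested.

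Steroids, fatty acids and many drugs are substrates of the Ugt2 enzymes, whose genes lie together on chromosome 5, and the Ugt3 genes lie on chromosome 15. In human, Ugt3 enzymes use sugars other than glucuronic acid. Of 10 tested members, 9 fell in Cirrhosis against Control (median log2 fold change -1.12) and the same 9 rose in Cirrhosis-PTH against Cirrhosis (median 0.93). Of all genes, 25.0% were lower in the first comparison and 20.1% higher in the second. For all 9 the Cirrhosis libraries lay below the Control libraries without overlap, which held for 14.7% of all genes. Ugt2b37 was the member without a call, with medians of 1.39 CPM in Cirrhosis-PTH, 1.86 CPM in Cirrhosis and 1.97 CPM in Control.

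Ugt2a3 (ENSMUSG00000035780, chromosome 5, 87324972 to 87337195, minus strand), whose human counterpart conjugates bile acids, fell furthest. Its level ran from 170 to 207 CPM in Cirrhosis-PTH (median 191), from 25.1 to 62.2 CPM in Cirrhosis (median 42.8) and from 156 to 252 CPM in Control (median 216). The Cirrhosis mean was 20.9% of the Control mean, and the log2 fold change was -2.26 ± 0.16 (adjusted p = 8.4e-10). In Cirrhosis-PTH against Cirrhosis it was 2.14 ± 0.16 (adjusted p = 6.4e-09), and in Cirrhosis-PTH against Control -0.12 ± 0.15 (adjusted p = 0.70). Ugt2b1 moved nearly as far, by -2.06 ± 0.13 and 1.74 ± 0.12 in the first and second of these comparisons (adjusted p = 9.1e-11 and 2.3e-09).

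Ugt2b5 led the family per kilobase in every library. It ran from 391 to 660 CPM in Cirrhosis-PTH (median 491), from 217 to 329 CPM in Cirrhosis (median 259) and from 450 to 785 CPM in Control (median 543), with a log2 fold change of -1.13 ± 0.14 in Cirrhosis against Control (adjusted p = 9.8e-07). Its Cirrhosis libraries stood below both other groups. As 41.7% of its 50-base windows also occur in another gene, mostly Ugt2b38, the level of either is uncertain. Ugt2b36 showed a log2 fold change of -0.83 ± 0.09 in Cirrhosis against Control (adjusted p = 1e-07). Ugt2b34 and Ugt2b35 were also lower in Cirrhosis-PTH than in Control. Ugt2b34 ran from 198 to 263 CPM in Cirrhosis-PTH (median 217), from 136 to 199 CPM in Cirrhosis (median 176) and from 230 to 363 CPM in Control (median 278). Its log2 fold change was -0.73 ± 0.11 in Cirrhosis against Control (adjusted p = 1.2e-05), 0.35 ± 0.11 in Cirrhosis-PTH against Cirrhosis (adjusted p = 0.014) and -0.38 ± 0.11 in Cirrhosis-PTH against Control (adjusted p = 0.036). The last value for Ugt2b35 was -0.40 ± 0.11 (adjusted p = 0.031). Neither of these calls against Control held without Control replicates 7 and 8 (adjusted p = 0.16 for Ugt2b34 and 0.18 for Ugt2b35). The 2 Ugt3 genes both fell in Cirrhosis and rose in Cirrhosis-PTH, Ugt3a1 by -1.86 ± 0.12 and 1.65 ± 0.12 and Ugt3a2 by -1.11 ± 0.11 and 0.94 ± 0.11 on the log2 scale.

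Of 10 tested Sult genes, 6 fell and 3 rose in Cirrhosis against Control (median log2 fold change -1.26), beside 25.0% of all genes lower and 25.5% higher. In Cirrhosis-PTH against Cirrhosis 6 rose and 1 fell (median 1.31), beside 20.1% of all genes higher and 18.6% lower. Sult2a8 (ENSMUSG00000030378, chromosome 7, 14410686 to 14446769, minus strand), which in mouse sulfates bile acids, ran from 261 to 383 CPM in Cirrhosis-PTH (median 373), from 10.6 to 46.0 CPM in Cirrhosis (median 40.2) and from 328 to 663 CPM in Control (median 477). No Cirrhosis liver came near the other groups, and the Cirrhosis mean was 7.06% of the Control mean. The log2 fold change was -3.82 ± 0.29 in Cirrhosis against Control (adjusted p = 9.5e-09), 3.40 ± 0.29 in Cirrhosis-PTH against Cirrhosis (adjusted p = 7.7e-08) and -0.43 ± 0.26 in Cirrhosis-PTH against Control (adjusted p = 0.36). Sult2a7, which lies next to it on chromosome 7, showed the same directions at a level under 2 CPM, with -1.75 ± 0.32 and 1.78 ± 0.31 in the first and second comparison.

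Sult1a1, the main phenol sulfotransferase, moved little. It ran from 82.3 to 157 CPM in Cirrhosis-PTH (median 126), from 59.7 to 115 CPM in Cirrhosis (median 86.0) and from 71.9 to 144 CPM in Control (median 112). The ranges overlap widely. Its log2 fold change was -0.41 ± 0.20 in Cirrhosis against Control (adjusted p = 0.10) and 0.49 ± 0.20 in Cirrhosis-PTH against Cirrhosis (adjusted p = 0.060), and both passed without Control replicate 7 (adjusted p = 0.035 and 0.040) or Cirrhosis replicate 3 (adjusted p = 0.045 and 0.027). Exons of Sgf29 on the other strand overlap it, and whether the counting used strand is not stated. Sult1d1, which sulfates catecholamines in mouse, ran from 41.0 to 64.8 CPM in Cirrhosis-PTH (median 48.4), from 20.7 to 40.9 CPM in Cirrhosis (median 27.0) and from 35.3 to 58.4 CPM in Control (median 48.1). It fell by 0.76 on the log2 scale in Cirrhosis against Control (log2 fold change -0.76 ± 0.15, adjusted p = 0.00034). Sult5a1 dropped further at a low level, by -3.31 ± 0.41 (adjusted p = 1.3e-06), and averaged 1.93 ± 0.744 CPM in Cirrhosis-PTH, 0.527 ± 0.296 CPM in Cirrhosis and 5.22 ± 2.78 CPM in Control (SD, n = 6 each). It was also lower in Cirrhosis-PTH than in Control (log2 fold change -1.44 ± 0.37, adjusted p = 0.021). That call was lost without Control replicate 2 (adjusted p = 0.058) or 3 (adjusted p = 0.052), and with the replicate number as a block (adjusted p = 0.082). Sult1b1, which acts on thyroid hormones, and Sult1c2 fell in Cirrhosis by -2.18 ± 0.26 and -2.46 ± 0.21 and rose in Cirrhosis-PTH by 2.13 ± 0.26 and 2.27 ± 0.21.

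The 3 members that rose in Cirrhosis were all Sult genes of low level, named here after their values were seen. Sult1e1, the oestrogen sulfotransferase, had 0 to 0.181 CPM in Cirrhosis-PTH (median 0.0431), 0.320 to 1.47 CPM in Cirrhosis (median 1.07) and 0 to 0.194 CPM in Control (median 0.0202). Every Cirrhosis library lay above all others. The log2 fold change was 4.34 ± 0.85 in Cirrhosis against Control (adjusted p = 0.00025) and -3.82 ± 0.78 in Cirrhosis-PTH against Cirrhosis (adjusted p = 0.00055). Sult6b1 averaged 0.391 ± 0.156 CPM in Cirrhosis-PTH, 0.346 ± 0.159 CPM in Cirrhosis and 0.0675 ± 0.0826 CPM in Control (SD, n = 6 each), higher than Control in both CCl4 groups (adjusted p = 0.024 for Cirrhosis-PTH and 0.0070 for Cirrhosis). Sult2b1, which sulfates cholesterol, had 57 counts over the Cirrhosis-PTH libraries, 97 over the Cirrhosis libraries and 3 over the Control libraries. Scaled by library size, the ratio to Control was 13.5 (95% counting interval 4.39 to 67.4) in Cirrhosis-PTH and 18.0 (6.00 to 89.0) in Cirrhosis. Of the 57 Cirrhosis-PTH counts, 35 were in replicate 3, without which the Cirrhosis-PTH call against Control was lost, as was that of Sult6b1. Exons of other genes overlap Sult2b1 and Sult6b1. Sult1e1 and Sult2b1 passed the low-count filter only through CCl4 libraries, none of their Control libraries being above it, so a difference was built into their being tested.

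Sult1e1, Sult1d1 and Sult1b1 are neighbours on the minus strand of chromosome 5, between 87513339 and 87591594, and Sult1e1 moved against the other two. The promoter windows of Sult1e1 (chr5:87591562-87591861) and Sult1d1 (chr5:87568957-87569256), RefSeq on GRCm38.p6, minus strand, are shown for this contrast. Capitals mark the same HNF1 letters and TATAAA, the core of the TATA box, on either strand.
Sult1e1: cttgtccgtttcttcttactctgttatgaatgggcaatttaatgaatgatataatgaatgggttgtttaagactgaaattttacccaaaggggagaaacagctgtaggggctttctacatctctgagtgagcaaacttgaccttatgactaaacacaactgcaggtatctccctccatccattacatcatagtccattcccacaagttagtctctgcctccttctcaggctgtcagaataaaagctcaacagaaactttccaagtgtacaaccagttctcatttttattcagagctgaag
Sult1d1: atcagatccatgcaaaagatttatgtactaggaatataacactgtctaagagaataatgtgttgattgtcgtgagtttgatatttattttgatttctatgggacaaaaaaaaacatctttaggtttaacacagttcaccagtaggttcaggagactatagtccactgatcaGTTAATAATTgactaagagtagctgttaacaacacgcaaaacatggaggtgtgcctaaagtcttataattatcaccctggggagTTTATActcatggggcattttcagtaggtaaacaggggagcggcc
The Sult1d1 window holds the HNF1 letters as printed, 79 bases before the start, and TATAAA on the reverse strand 5 bases after the start, downstream of where a TATA box lies. Neither string is in the Sult1e1 window. Sult1e1 passed the low-count filter only with its Cirrhosis libraries, so its direction was partly built into its being tested.

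**Figure D2:**
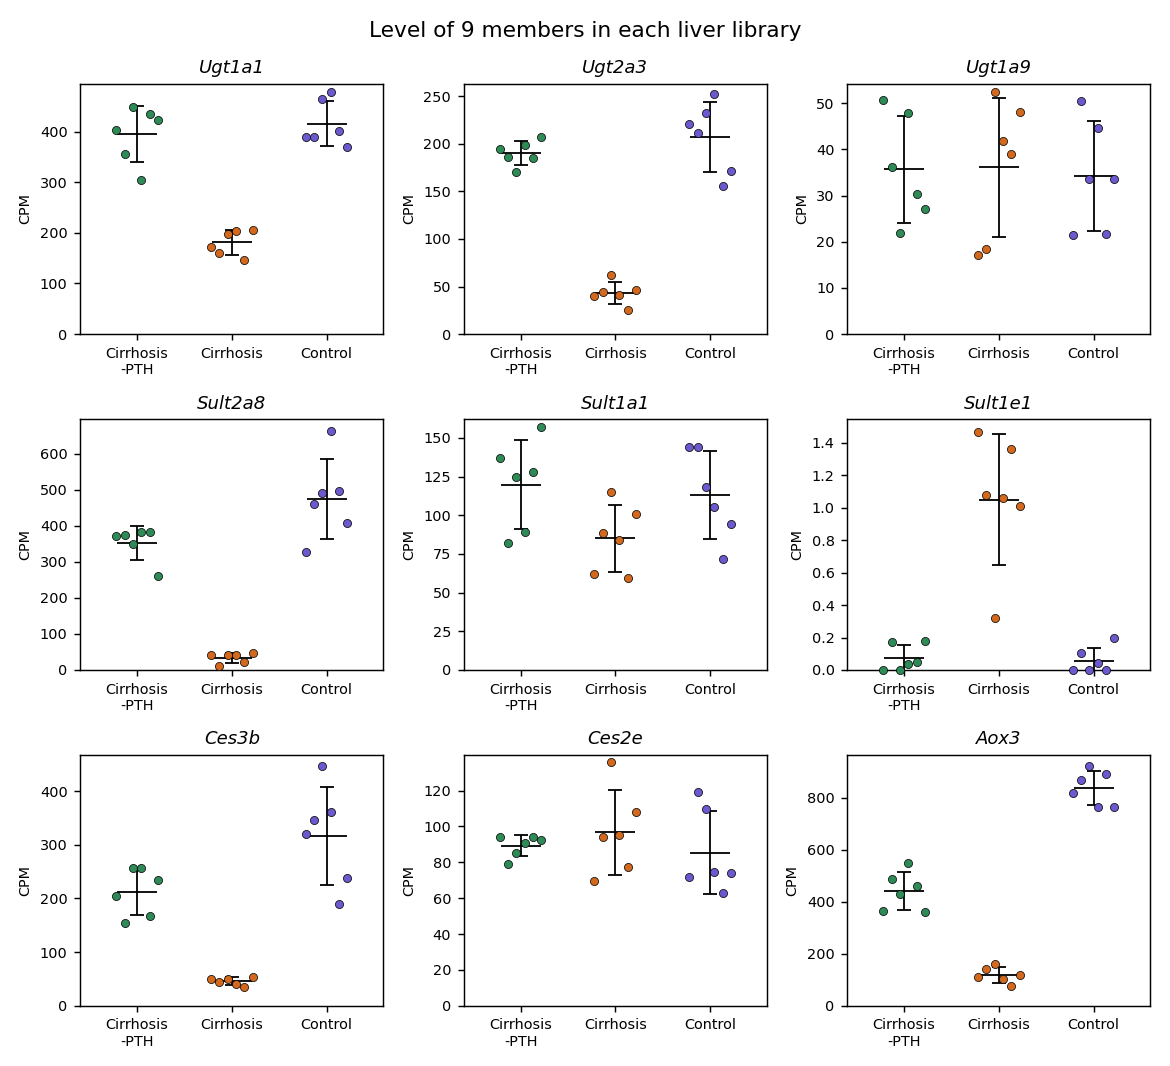
CPM (y axes, from 0) of 9 members in each of the 6 libraries of Cirrhosis-PTH, Cirrhosis and Control (x axes), with black bars at the mean ± SD. Cirrhosis points lie apart below both other groups for Ugt1a1, Ugt2a3, Sult2a8, Ces3b and Aox3 and apart above them for Sult1e1, while the 3 groups overlap for Ugt1a9, Sult1a1 and Ces2e.

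Ces1 genes lie side by side on the minus strand of chromosome 8. Of 7 tested, 5 fell in Cirrhosis against Control (median log2 fold change -0.92), and 6 rose in Cirrhosis-PTH against Cirrhosis (median 1.07), all 6 without overlap. Of all genes, 25.0% were lower in the first comparison. In the second, 20.1% were higher, and 11.8% lay higher without overlap. Ces1c (ENSMUSG00000057400, chromosome 8, 93099015 to 93131283), the form that mouse liver secretes into plasma, had the highest level per kilobase of all members in 16 of the 18 libraries, the exceptions being Control livers where Ces3a was higher. It ran from 1130 to 1245 CPM in Cirrhosis-PTH (median 1150), from 588 to 683 CPM in Cirrhosis (median 625) and from 895 to 1402 CPM in Control (median 1278). The Cirrhosis libraries stood below both other groups. The log2 fold change was -0.92 ± 0.09 in Cirrhosis against Control (adjusted p = 6.2e-08), 0.89 ± 0.09 in Cirrhosis-PTH against Cirrhosis (adjusted p = 2.4e-07) and -0.04 ± 0.09 in Cirrhosis-PTH against Control (adjusted p = 0.86).

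Ces1d, a hydrolase of stored triacylglycerol, and Ces1f fell further than Ces1c. Ces1d ran from 368 to 483 CPM in Cirrhosis-PTH (median 457), from 71.3 to 148 CPM in Cirrhosis (median 124) and from 381 to 547 CPM in Control (median 419). Its log2 fold change was -1.93 ± 0.16 in Cirrhosis against Control (adjusted p = 7.7e-09), 1.94 ± 0.16 in Cirrhosis-PTH against Cirrhosis (adjusted p = 2.1e-08) and 0.01 ± 0.16 in Cirrhosis-PTH against Control (adjusted p = 0.97). Cirrhosis livers again did not overlap with the others. Ces1f showed -1.91 ± 0.13 and 1.68 ± 0.12 in the first and second comparison (adjusted p = 1.9e-10 and 3.4e-09). Ces1e and Ces1g also fell in Cirrhosis, by -1.51 ± 0.14 and -0.79 ± 0.20. Ces1b stood apart, with 51.5 to 65.5 CPM in Cirrhosis-PTH (median 58.1), 28.2 to 44.2 CPM in Cirrhosis (median 38.7) and 36.2 to 57.5 CPM in Control (median 41.3). Its log2 fold change of -0.24 ± 0.12 in Cirrhosis against Control did not pass (adjusted p = 0.10), while it was higher in Cirrhosis-PTH than in Cirrhosis (0.64 ± 0.12, adjusted p = 0.00018) and than in Control (0.40 ± 0.12, adjusted p = 0.038). The last call was lost without Control replicates 7 and 8 (adjusted p = 0.14). Of the 50-base windows of Ces1b, 11.6% also occur in another gene, mostly Ces1c.

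Ces2, Ces3 and Ces4 genes form another cluster further along chromosome 8, on the plus strand. Of the 9 members tested from Ces2 to Ces5, 6 fell in Cirrhosis against Control (median log2 fold change -1.62), none with overlap. In Cirrhosis-PTH against Cirrhosis 6 rose (median 1.19). Of all genes, 25.0% were lower in the first comparison, and 14.7% lay lower without overlap, while 20.1% were higher in the second. Ces3a (ENSMUSG00000069922, chromosome 8, 105048601 to 105058413) was the second member per kilobase by mean level in every group. It ran from 823 to 957 CPM in Cirrhosis-PTH (median 896), from 355 to 431 CPM in Cirrhosis (median 397) and from 958 to 1344 CPM in Control (median 1222). The 3 groups did not overlap with one another. The log2 fold change was -1.62 ± 0.09 in Cirrhosis against Control (adjusted p = 1.9e-11), 1.19 ± 0.09 in Cirrhosis-PTH against Cirrhosis (adjusted p = 2.7e-09) and -0.43 ± 0.09 in Cirrhosis-PTH against Control (adjusted p = 0.0028).

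Ces3b (ENSMUSG00000062181, chromosome 8, 105083753 to 105093929), next to Ces3a, fell further. It ran from 155 to 257 CPM in Cirrhosis-PTH (median 220), from 35.2 to 53.8 CPM in Cirrhosis (median 47.1) and from 190 to 446 CPM in Control (median 333), with a log2 fold change of -2.80 ± 0.19 in Cirrhosis against Control (adjusted p = 8.5e-10). In Cirrhosis-PTH against Control, the value of -0.58 ± 0.18 lay at the threshold (adjusted p = 0.050) and was not called in most fits that left out a library. Ces3a per kilobase exceeded Ces3b 3.39 to 5.88 times in Cirrhosis-PTH libraries, 7.54 to 9.84 times in Cirrhosis libraries and 2.92 to 6.40 times in Control libraries. That ratio was picked after its values were seen and carries no test, and 25.6% of the 50-base windows of Ces3a and 26.2% of those of Ces3b occur in another gene, mostly in each other. Ces2a showed a log2 fold change of -1.29 ± 0.12 in Cirrhosis against Control (adjusted p = 2e-08) and 0.86 ± 0.12 in Cirrhosis-PTH against Cirrhosis (adjusted p = 6.3e-06). Ces4a, at the far end of the cluster, had the largest fall of all members tested, to 0.0906 ± 0.0794 CPM in Cirrhosis against 2.04 ± 0.928 CPM in Control (SD, n = 6 each, log2 fold change -4.45 ± 0.55, adjusted p = 9.7e-07). It had 0.761 ± 0.374 CPM in Cirrhosis-PTH.

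Between genes that fell lay some without a call. Ces2e had 79.2 to 94.4 CPM in Cirrhosis-PTH (median 91.5), 69.7 to 136 CPM in Cirrhosis (median 94.7) and 62.9 to 119 CPM in Control (median 74.4), and its log2 fold change was 0.18 ± 0.16 in Cirrhosis against Control (adjusted p = 0.36) and -0.12 ± 0.16 in Cirrhosis-PTH against Cirrhosis (adjusted p = 0.61). Ces2g gave -0.32 ± 0.17 and 0.32 ± 0.17. With the levels of its neighbours lower, Ces2e made up 6.19 ± 0.473% of the Ces2 to Ces5 level per kilobase in Cirrhosis-PTH, 14.4 ± 2.32% in Cirrhosis and 4.38 ± 0.841% in Control. The promoter windows of Ces3b (chr8:105083505-105083804) and Ces2e (chr8:104926010-104926309), RefSeq on GRCm38.p6, plus strand, are shown as the steep faller and the gene without a call of 1 cluster. Capitals mark TATAAA in Ces3b and CAAAGNNCA, a core of the motif of HNF4, another liver transcription factor, in Ces2e.
Ces3b: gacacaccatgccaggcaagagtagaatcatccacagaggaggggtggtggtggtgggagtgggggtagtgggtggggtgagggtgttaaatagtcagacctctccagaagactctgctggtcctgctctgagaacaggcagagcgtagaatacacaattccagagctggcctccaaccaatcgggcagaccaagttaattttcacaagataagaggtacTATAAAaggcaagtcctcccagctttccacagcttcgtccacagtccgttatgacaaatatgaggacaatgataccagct
Ces2e: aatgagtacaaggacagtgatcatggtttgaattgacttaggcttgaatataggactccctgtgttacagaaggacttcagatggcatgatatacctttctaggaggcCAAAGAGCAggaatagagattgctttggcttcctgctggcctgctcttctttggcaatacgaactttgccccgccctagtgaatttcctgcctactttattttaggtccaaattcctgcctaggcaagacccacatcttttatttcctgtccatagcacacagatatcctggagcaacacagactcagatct
TATAAA begins 30 bases before the start of Ces3b, and CAAAGNNCA begins 142 bases before the start of Ces2e. Neither window holds the other's string.

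**Figure D3:**
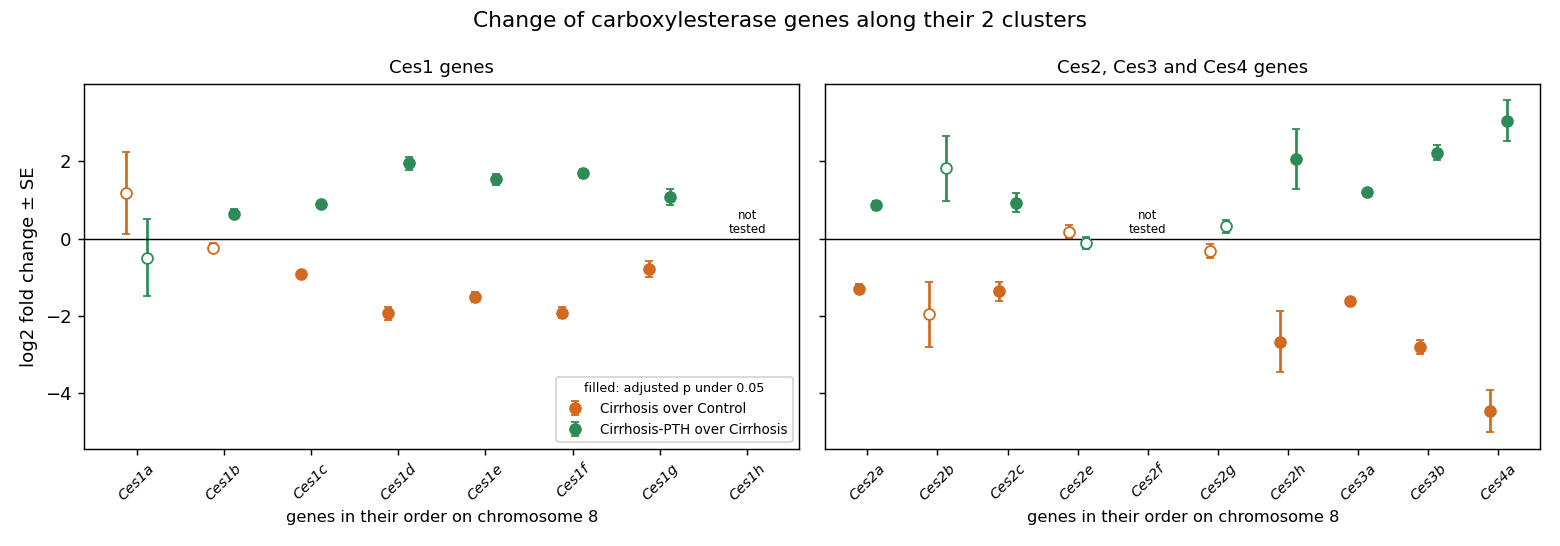
Log2 fold change with its standard error (y axis) of each Ces1 gene (left) and each Ces2, Ces3 and Ces4 gene (right), in their order on chromosome 8 (x axis), for Cirrhosis over Control and Cirrhosis-PTH over Cirrhosis, filled where the adjusted p was under 0.05. Ces1b, Ces2e and Ces2g have open points near 0 in Cirrhosis over Control, and Ces4a at the end of its cluster is lowest, at -4.45.

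Flavin-containing monooxygenases add oxygen to nitrogen and sulfur of amines and drugs. Of 5 tested, 2 fell in Cirrhosis against Control (median log2 fold change -0.22) and 3 rose in Cirrhosis-PTH against Cirrhosis (median 0.46). Of all genes, 25.0% were lower in the first comparison and 20.1% higher in the second. The share called in either direction in Cirrhosis against Control was 40.0%, not above the 50.5% of all genes. Fmo5, the most abundant, ran from 452 to 592 CPM in Cirrhosis-PTH (median 472), from 254 to 398 CPM in Cirrhosis (median 312) and from 333 to 452 CPM in Control (median 395). Its log2 fold change was -0.32 ± 0.11 in Cirrhosis against Control (adjusted p = 0.018) and 0.65 ± 0.11 in Cirrhosis-PTH against Cirrhosis (adjusted p = 6.4e-05). The groups of the first comparison overlapped, and that call was lost without Control replicates 7 and 8 (adjusted p = 0.058) or without Cirrhosis-PTH replicate 4 (adjusted p = 0.054), while those of the second comparison did not overlap. In Cirrhosis-PTH against Control, Fmo5 gave 0.33 ± 0.11 (adjusted p = 0.067), which DESeq2 called (adjusted p = 0.032). Fmo1 showed -0.60 ± 0.11 in Cirrhosis against Control (adjusted p = 6.3e-05) and 0.46 ± 0.11 in Cirrhosis-PTH against Cirrhosis (adjusted p = 0.0014). Fmo2, known mainly from lung, averaged 19.0 ± 8.44 CPM in Cirrhosis-PTH, 14.2 ± 4.55 CPM in Cirrhosis and 11.4 ± 3.06 CPM in Control (SD, n = 6 each) and passed in no comparison in edgeR.

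Aldehyde oxidase genes lie in a row on the plus strand of chromosome 1, and the neighbours Aox1 and Aox3 differed in the size of their change. Aox3 (ENSMUSG00000064294, 58113130 to 58200698), the main liver form in mouse, ran from 362 to 549 CPM in Cirrhosis-PTH (median 446), from 75.7 to 161 CPM in Cirrhosis (median 115) and from 762 to 920 CPM in Control (median 842). None of the 3 groups overlapped with another. The log2 fold change was -2.83 ± 0.15 in Cirrhosis against Control (adjusted p = 1.6e-11), 1.91 ± 0.14 in Cirrhosis-PTH against Cirrhosis (adjusted p = 4.5e-09) and -0.92 ± 0.14 in Cirrhosis-PTH against Control (adjusted p = 0.00026). Aox1 (ENSMUSG00000063558, 58029931 to 58106413) ran from 79.1 to 108 CPM in Cirrhosis-PTH (median 84.8), from 64.9 to 104 CPM in Cirrhosis (median 82.2) and from 95.1 to 129 CPM in Control (median 107). Its groups overlapped, with a log2 fold change of -0.39 ± 0.11 in Cirrhosis against Control (adjusted p = 0.0043), 0.12 ± 0.11 in Cirrhosis-PTH against Cirrhosis (adjusted p = 0.43) and -0.27 ± 0.11 in Cirrhosis-PTH against Control (adjusted p = 0.12). Aox2, known from the nasal lining, stayed at or under 0.375 CPM in every library, and Aox4, known from the Harderian gland, was not tested.

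The promoter windows of Aox3 (chr1:58112886-58113185) and Aox1 (chr1:58029719-58030018), RefSeq on GRCm38.p6, plus strand, are given for this pair of neighbours.
Aox3: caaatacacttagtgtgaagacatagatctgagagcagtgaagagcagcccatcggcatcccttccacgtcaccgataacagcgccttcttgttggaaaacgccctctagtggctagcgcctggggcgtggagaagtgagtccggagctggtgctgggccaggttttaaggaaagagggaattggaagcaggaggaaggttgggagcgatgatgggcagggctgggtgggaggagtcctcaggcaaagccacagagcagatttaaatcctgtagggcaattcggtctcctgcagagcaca
Aox1: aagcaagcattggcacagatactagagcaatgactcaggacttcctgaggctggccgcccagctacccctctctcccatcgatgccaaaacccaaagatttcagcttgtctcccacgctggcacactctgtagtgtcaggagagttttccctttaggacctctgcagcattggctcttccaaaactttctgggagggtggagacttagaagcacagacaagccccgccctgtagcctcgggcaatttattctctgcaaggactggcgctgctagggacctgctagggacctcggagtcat
None of the motifs searched is in either window. Besides the HNF1 letters, TATAAA and CAAAGNNCA these included TTCNNNGAA, the core of the motif of STAT5, a factor of growth hormone signalling, all on both strands. RefSeq windows of 300 bases matched 60 of the 72 members, with 65 windows in all. The HNF1 letters were in 10 of these (15.4%), against 0.399% of all 32851 windows of the table. The 10 belong to Sult2a3, Sult2a4, Sult2a5, Sult2a6, Sult1d1, Ugt1a1, Ugt1a9, Ugt1a10, Ces5a and Fmo6, and the Sult2a genes among them had no count. Ces5a and Fmo6, with 2 and 11 counts over all libraries, also failed the low-count filter. Tested members with the letters were thus Sult1d1, Ugt1a1, Ugt1a9 and Ugt1a10 only. TATAAA was in 26.2% of the member windows and 13.6% of all windows, CAAAGNNCA in 7.69% and 6.36%, and TTCNNNGAA in 10.8% and 8.30%.

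The leading member per kilobase changed between groups in the Sult family, while each of the other families had the same leader in all 18 libraries. Per kilobase, Sult2a8 made up 50.5 ± 8.17% of the summed Sult level in Cirrhosis-PTH, 12.8 ± 4.95% in Cirrhosis and 58.4 ± 8.62% in Control (SD, n = 6 each). Sult1a1 made up 36.8 ± 7.23% in Cirrhosis-PTH, 69.7 ± 4.62% in Cirrhosis and 30.6 ± 8.22% in Control. Sult2a8 was thus the leading Sult gene in 5 of 6 Cirrhosis-PTH and 6 of 6 Control libraries, and Sult1a1 in 6 of 6 Cirrhosis libraries. Aox3 led its family in all libraries, at 85.8 ± 1.73% in Cirrhosis-PTH, 63.1 ± 8.97% in Cirrhosis and 90.5 ± 1.20% in Control. Per kilobase, Aox3 exceeded Aox1 5.12 to 7.08 times in Cirrhosis-PTH, 1.08 to 2.81 times in Cirrhosis and 7.83 to 11.2 times in Control libraries. These shares were picked with the members' changes known and carry no test. Summed over the 72 members, the level was 7718 ± 276 CPM in Cirrhosis-PTH, 3667 ± 337 CPM in Cirrhosis and 8988 ± 785 CPM in Control.

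**Figure D4:**
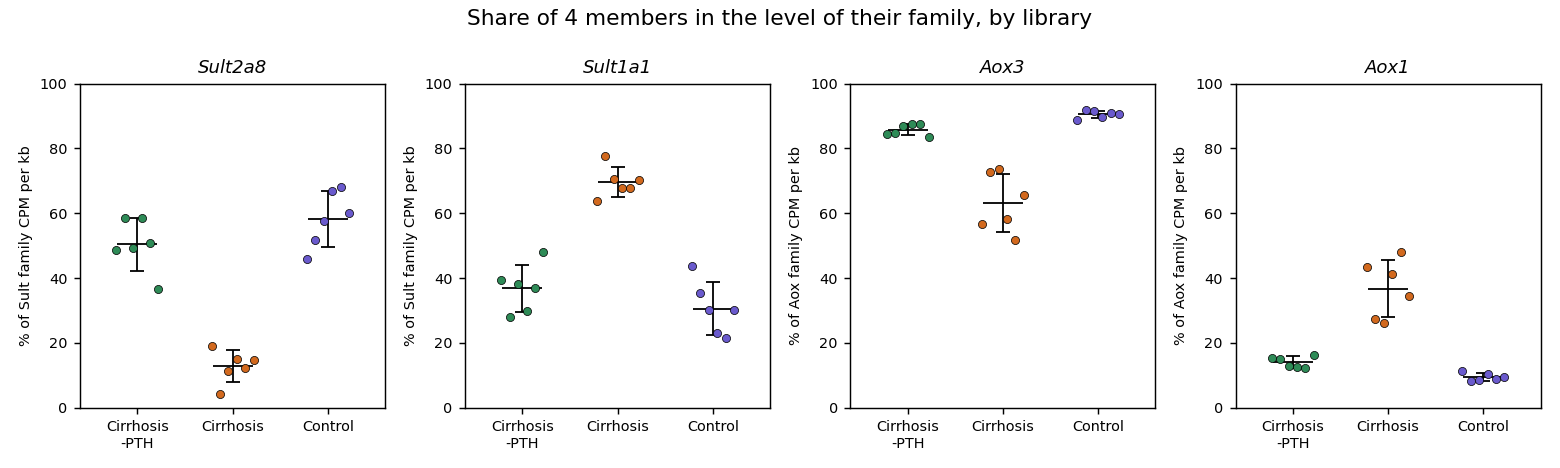
Share (y axes, 0 to 100%) of Sult2a8 and Sult1a1 in the summed CPM per kilobase of the Sult genes, and of Aox3 and Aox1 in that of the Aox genes, in each library of Cirrhosis-PTH, Cirrhosis and Control, with black bars at the mean ± SD. Sult1a1 exceeds Sult2a8 in all 6 Cirrhosis libraries, and the Aox1 share is highest in Cirrhosis, at 36.8 ± 8.91%.

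In Cirrhosis-PTH against Control, the lower members were Aox3, Ces2a, Ces3a, Ces3b, Sult5a1, Ugt2b34 and Ugt2b35, and the higher were Ces1b, Sult2b1 and Sult6b1. For 2 of the lower (Aox3 and Ces3a) and none of the higher members the libraries did not overlap, beside 1.40% and 3.07% of all genes. Aox3 and Ces3a were also called lower in every alternative run. The other calls changed with single libraries. Without Cirrhosis-PTH replicate 3, Ces1b was the 1 higher member called and 3 lower members were called. Without Control replicate 2, 2 higher and 3 lower members were called, and without Control replicate 7, Sult6b1 was the 1 higher member, beside 5 lower. Without Control replicate 3 or Cirrhosis-PTH replicate 1, 5 or 6, Sult2b1 and Sult6b1 were the higher members, beside 4 lower. Without Control replicate 6, 4 lower members were called, Ces1b and Sult2b1 were lost, and Ugt1a8 was called higher beside Sult6b1. Without Control replicates 7 and 8 together, no higher and 5 lower members were called. In DESeq2, 5 members were higher and 9 lower.

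Members that failed the low-count filter were 19. No library had a count for Fmo9, Sult1c1, Sult3a2 and Sult2a3 to Sult2a6, and 3 counts, the limit that a count of 0 allows, over all libraries would be 0.0019 CPM. Of these 19, Sult2a1 to Sult2a6, Sult3a1 and Sult3a2 are known as higher in female than in male mouse liver. Fmo2, listed with them as such, passed the filter and averaged 11.4 CPM in Control. The 12 of the 19 with any count had at most 74 counts over all libraries. Sult4a1, a sulfotransferase known from brain, had 16 counts in Cirrhosis-PTH, 56 in Cirrhosis and 0 in Control, at least 3.79-fold higher in Cirrhosis-PTH and at least 10.4-fold higher in Cirrhosis than in Control. Ces2f, with 24 counts in Cirrhosis and 0 in Control, was at least 4.47-fold higher in Cirrhosis. Ces1h had 0 counts in Cirrhosis-PTH, 48 in Cirrhosis and 10 in Control, at least 12.6-fold lower in Cirrhosis-PTH than in Cirrhosis. Sult2a2 had 0 counts in Cirrhosis-PTH, 26 in Cirrhosis and 3 in Control, with a Cirrhosis to Control ratio of 4.84 (95% counting interval 1.48 to 25.0). Few libraries carry these counts. The Sult4a1 counts in Cirrhosis-PTH were 7 and 9 in 2 libraries, and 27 of its 56 in Cirrhosis were in replicate 6. Replicate 4 held 12 of the 24 Ces2f counts in Cirrhosis, replicate 2 held 16 of the 26 Sult2a2 counts, and replicates 1 and 3 held 22 and 18 of the 48 Ces1h counts. These bounds use a floor of 3 counts for the group without a count and take the counts of the other group as exact. They therefore cover counting error in the group at 0 only, and are not full lower limits. The interval covers counting error only.

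Genes that supply the enzymes with cofactors did not all move the same way, read against 25.5% of all genes higher and 25.0% lower in Cirrhosis against Control. Of 8 tested genes of PAPS supply and removal, 5 fell and 1 rose in Cirrhosis against Control, and 5 rose and 1 fell in Cirrhosis-PTH against Cirrhosis. In the latter comparison 20.1% of all genes were higher and 18.6% lower. Papss2, the main liver PAPS synthase, averaged 134 ± 26.5 CPM in Cirrhosis-PTH, 50.8 ± 15.1 CPM in Cirrhosis and 145 ± 22.4 CPM in Control (SD, n = 6 each), with -1.52 ± 0.17 in Cirrhosis against Control (adjusted p = 6.4e-07), whereas Papss1 gave 0.57 ± 0.14 (adjusted p = 0.0019). Of 8 genes of UDP-glucuronic acid supply and hydrolysis, 3 were higher and 3 lower in Cirrhosis, not far from the shares over all genes. Among them Ugdh, which makes UDP-glucuronic acid, gave 0.35 ± 0.15 in Cirrhosis against Control (adjusted p = 0.064) and -0.55 ± 0.15 in Cirrhosis-PTH against Cirrhosis (adjusted p = 0.0069). Of 8 tested genes of the molybdenum cofactor and of other molybdenum enzymes, 5 fell in Cirrhosis and none rose. Mocos, which activates the cofactor of aldehyde oxidases, gave -0.63 ± 0.07 (adjusted p = 4.5e-07), and Xdh, the related xanthine dehydrogenase, gave 0.13 ± 0.09 (adjusted p = 0.25). Of 7 genes for electron donors of P450 and the flavin cofactor, 5 fell, and of 4 tested sulfatases, which remove sulfate again, 3 fell.

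Other enzymes and transporters of the same pathways also fell for the most part in Cirrhosis against Control, where 25.0% of all genes were lower and 25.5% higher. That was so for 15 of 22 other conjugating enzymes, with 4 higher, for 9 of 11 other esterases and lipid hydrolases, with none higher, and for 8 of 11 transporters of conjugates, with 3 higher. The higher ones ranged from Gstm1 at 0.54 ± 0.19 on the log2 scale (adjusted p = 0.025) to Gsta1 among the conjugating enzymes, and from Abcb1a at 1.55 ± 0.19 (adjusted p = 1.1e-06) to Abcc4 among the transporters. The glutathione transferase Gsta1 averaged 1.36 ± 0.546 CPM in Cirrhosis-PTH, 35.1 ± 15.6 CPM in Cirrhosis and 1.51 ± 1.11 CPM in Control (SD, n = 6 each), 4.51 ± 0.50 higher on the log2 scale in Cirrhosis than in Control (adjusted p = 1.2e-06). Abcc4, an exporter of sulfated steroids and bile acids across the sinusoidal membrane, rose by 3.54 ± 0.30 (adjusted p = 3.2e-08), while Abcc2, the canalicular exporter of glucuronides, gave -0.54 ± 0.08 (adjusted p = 6.5e-06). Of 10 receptors and factors known to act on the members, 7 fell and 1 rose in Cirrhosis. Nr1i3 (CAR) gave -1.75 ± 0.17 (adjusted p = 1e-07) and Nr1i2 (PXR) -0.92 ± 0.10 (adjusted p = 1.1e-07), Nfe2l2 (NRF2) gave 0.57 ± 0.09 (adjusted p = 1.6e-05), and Ahr gave -0.16 ± 0.12 (adjusted p = 0.29). In Cirrhosis-PTH against Cirrhosis, 7 of the 10 rose and 1 fell, against 20.1% of all genes higher and 18.6% lower. Of 9 hepatocyte markers 8 fell in Cirrhosis and 7 rose in Cirrhosis-PTH against Cirrhosis, with median log2 fold changes of -0.63 and 0.72, and of 8 pericentral markers 7 fell and 8 rose, with medians of -2.52 and 2.69. In Cirrhosis-PTH against Control no hepatocyte marker was called, while 3 pericentral markers were lower and 1 was higher. Of all genes, 2.48% were lower and 6.34% higher there.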

How the data were processed

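The authors deposited 1 table of raw counts, with a row per gene and a column per library. Per the submitters' processing notes the genome build was GRCm38, and the tools named, without roles, are Trim Galore, Bowtie2, Bowtie 1.3.1, cutadapt 4.2, HISAT2 2.2.1 and StringTie 2.1.5. The annotation, the counter and its use of strand are not given in the sources used here. Per the labels' protocols, ribosomal RNA was depleted from total liver RNA before library preparation.

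Counts were tested with edgeR 4.0.16 in R 4.3.3 (TMM, filterByExpr defaults, robust quasi-likelihood F-test, two-sided, 1 fit of 18 libraries in 3 groups, Benjamini-Hochberg over 21914 genes, threshold 0.05). The filter asks for about 0.119 unscaled CPM in at least 6 libraries, and 44 of the 53 tested members were above it in every library. The procedure was tested on simulated data. Standard errors derive from the F statistic. Levels per kilobase use the exonic length in GENCODE M21 (GRCm38), which also gave coordinates and shared sequence.

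The symbol rule for the members uses no values, but it and the gene lists were set with earlier results of these data known. In each family the text names the 3 tested members of highest mean CPM and, per comparison, the largest change past 0.05 among those whose mean log2 CPM is 0 or more, and others where a sentence needs them. Those others, such as Ugt1a9, Sult1e1, Ces2e and Ces4a, and the promoter pairs were picked after their values were seen. Each library is 1 mouse, so p-values measure the spread between mice. The labels give no batch. Alternatives were DESeq2 1.42.0, other scaling (RLE), no filter, 12 libraries only, a replicate block and leaving out libraries. Depth limits members of a few counts to bounds or intervals. The intervals cover counting error only, and the bounds cover it only in the group without a count. Of the tested members, 1 is counted in the totals but not reported here by name.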

Additional observations from a re-analysis of the deposited data

Results flagged for a closer look

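Of 78 groups of 6 libraries examined for the named members, 6 had 1 library far from the other 5, by the ratio of its gap to the range of the group. Chance flags about 1 group in 20. Ugt1a6a stood at 93.3 CPM in Cirrhosis replicate 3, and the next library of that group had 65.0 CPM. Ugt1a10 was 2.41 CPM in Cirrhosis replicate 2, above 0.971 CPM in the next, and 1.83 CPM in Control replicate 2, below 8.09 CPM in the next. Sult2a8 was 261 CPM in Cirrhosis-PTH replicate 6, below 349 CPM in the next, while Sult1d1 was 64.8 CPM in the same library, above 48.8 CPM in the next. Sult5a1 was 3.37 CPM in Cirrhosis-PTH replicate 1, above 1.87 CPM in the next. The size of the Ugt1a10 change moved, to -4.0 in Cirrhosis against Control and 3.0 in Cirrhosis-PTH against Cirrhosis without Cirrhosis replicate 2. None of the calls of Ugt1a6a, Ugt1a10, Sult2a8 or Sult1d1 changed when these libraries were left out, nor did those of Sult5a1 without Cirrhosis-PTH replicate 1.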

How the results depend on the processing

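The counts of members called in Cirrhosis against Control and in Cirrhosis-PTH against Cirrhosis stayed within 1.5 times their value in all alternatives except without the low-count filter. There the members higher in Cirrhosis than in Control became 5, with Ces2f and Sult4a1 added, and the members lower in Cirrhosis-PTH than in Cirrhosis became 3, with Ces1h and Sult2a2 added. In Cirrhosis-PTH against Control, 3 higher and 7 lower members became 5 and 9 in DESeq2 and 0 and 5 without Control replicates 7 and 8 together. Leaving out 1 library at a time gave 3 to 3 higher and 34 to 38 lower members in Cirrhosis against Control, 37 to 40 and 1 to 1 in Cirrhosis-PTH against Cirrhosis, and 1 to 4 and 3 to 8 in Cirrhosis-PTH against Control. All genes called ranged over 10385 to 11142, 7723 to 8604 and 1293 to 2009 in these comparisons, and the difference in the share at ribosomal RNA loci over -10.7 to -6.55, 0.85 to 4.31 and -8.33 to -4.16 percentage points. The labels give the replicate numbers no meaning, same-numbered libraries of 2 groups correlated between -0.0644 and 0.0512 in their deviations, and 1 of 16 libraries correlated best with its own number. With the replicate number as a block, 9526, 8219 and 1354 genes were called, with 3 higher and 33 lower, 37 higher and 1 lower, and 0 higher and 4 lower members. Over 78 fold changes of the 26 members named by rule, no call reversed in 1950 alternative values, 58 lost a call and 12 gained one, and the cause was not tested. Signs changed only without a call, as for Aox2 in Cirrhosis-PTH against Control (-0.82 to 0.16). Among these members the lost calls were those of Ces1b, Ces2a, Ces3b, Sult5a1, Ugt2b34 and Ugt2b35 in Cirrhosis-PTH against Control, Ugt2b34 in Cirrhosis-PTH against Cirrhosis and Fmo5 in Cirrhosis against Control. Outside them, Sult2b1 and Sult6b1 lost their Cirrhosis-PTH calls against Control with the block, without Control replicates 7 and 8 and without Cirrhosis-PTH replicate 3. Sult2b1 also lost it without Control replicate 1, 2, 6 or 7, and with 12 libraries only lost its calls in both CCl4 groups. Ces2h, near the threshold in Cirrhosis-PTH against Cirrhosis (edgeR adjusted p = 0.042), lost that call without the filter, with the block and with 12 libraries only. The same call was lost without Control replicates 7 and 8 and in several fits that left out a library. Both Ces2h and Ugt1a2 lost their Cirrhosis calls against Control with the block.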
